A study of Mus musculus with 10 samples.

Results

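A set of 9 genes of insulin and insulin-like growth factor (IGF) signalling was followed in mouse small cell lung cancer (SCLC) cells with a MYCN transgene switched on or off. They are the ligand Igf2, the binding proteins Igfbp4 and Igfbp5, the receptors Insr, Igf1r, Insrr and Igf2r, and the adaptors Irs1 and Irs2. All 9 symbols were found among the 24391 genes listed in the count files. The set was drawn up around Insrr because Insrr had one of the largest differences between the MYCN-on and MYCN-off libraries. That difference, and the same comparison for the other 8 genes, is therefore given as a description with no p-value, and where calls of the fit are counted for these genes nothing is read from the count. Tests are given for differences between cell lines and for the 53 of 62 other listed pathway genes that passed the filter on low counts.

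Insulin and the IGFs bind receptor tyrosine kinases at the cell surface, mainly the insulin receptor and the type 1 IGF receptor. The activated receptors phosphorylate IRS adaptors, which recruit phosphoinositide 3-kinase (PI3K) and so activate AKT, a kinase that promotes growth and holds FOXO transcription factors out of the nucleus. Secreted IGF-binding proteins bind the ligands and set how much of them reaches the receptors, and the type 2 IGF receptor removes IGF2 by endocytosis. IGF signals are known to support growth and survival of lung cancer cells.

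RNA was sequenced from lines named G4314, G9351, G9488, G9529 and G9577, derived from SCLC tumours of mice labelled Rb;p53,TRE-MYCN, LSL-RTTA. In that notation, MYCN is driven by a tetracycline-responsive promoter and the activator rtTA lies behind a lox-flanked stop, and all 10 libraries share this genotype. Every line was sequenced in 2 states, under doxycycline (called MYCN on here) and 4 days after the drug was taken away (MYCN off), with 1 library for each state. The cells that expressed Cre, the age of the mice and the number of clones in a line are not given in the sources used here. All cultures carried the transgene, so a response to the drug itself cannot be told apart from one to MYCN. Nothing read here says from which species the MYCN sequence came.

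The 5 MYCN-on libraries held 9586465 to 11960074 counts and the 5 MYCN-off libraries 9928420 to 11123998. Levels are TMM-scaled CPM (gene counts relative to the library's effective total), relative to the other RNA of the same library, and n = 5 lines unless another number is given. In such bulk samples fewer cells of a type and less RNA per cell cannot be told apart. Mycn itself ranged from 496 to 977 CPM in the MYCN-on libraries and from 27.6 to 189 CPM in the MYCN-off libraries, and the groups did not overlap. The line G9577 did not match the neuroendocrine cell type of SCLC. In G9577 the summed level of 10 neuroendocrine markers was 224 CPM in the MYCN-on library and 184 CPM in the MYCN-off library, against 3213 to 7292 CPM in the 8 libraries of the other lines. Of the 10 mesenchymal markers, Vim and Acta2 were the main contributors in G9577. Thy1 was at 0 in both libraries of G9577, against 2.94 CPM on and 6.52 CPM off in G4314. Dcn (0.0932 CPM) and Lum (0.280 CPM) were below 1 CPM in G9577 with MYCN on, and Dcn was at 1.49 CPM in G9488 with MYCN on. All 10 together summed to 2648 CPM on and 9082 CPM off in G9577, against 1.90 to 10.9 CPM in the other 8 libraries. Leukocyte markers summed to 2.08 to 6.45 CPM in those 8 libraries and to 3.73 and 61.3 CPM in G9577 with MYCN on and off. Lyz2 was the main contributor to the 61.3 CPM (55.0 CPM), and Ptprc and Cd3e were at 0 in that library. Lung epithelial markers summed to 7.06 to 21.0 CPM in those 8 libraries and to 3.82 and 162 CPM in G9577. Endothelial markers summed to 8.59 to 462 CPM in those 8, where Vwf was the main contributor and Cdh5 and Kdr were below 1 CPM, and to 36.3 and 140.1 CPM in G9577, where Kdr was the main contributor and Cdh5 was at 0. Because of this difference the fits of the 7 of the 9 genes that passed the filter on low counts are also given without G9577.

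**Figure D1:**
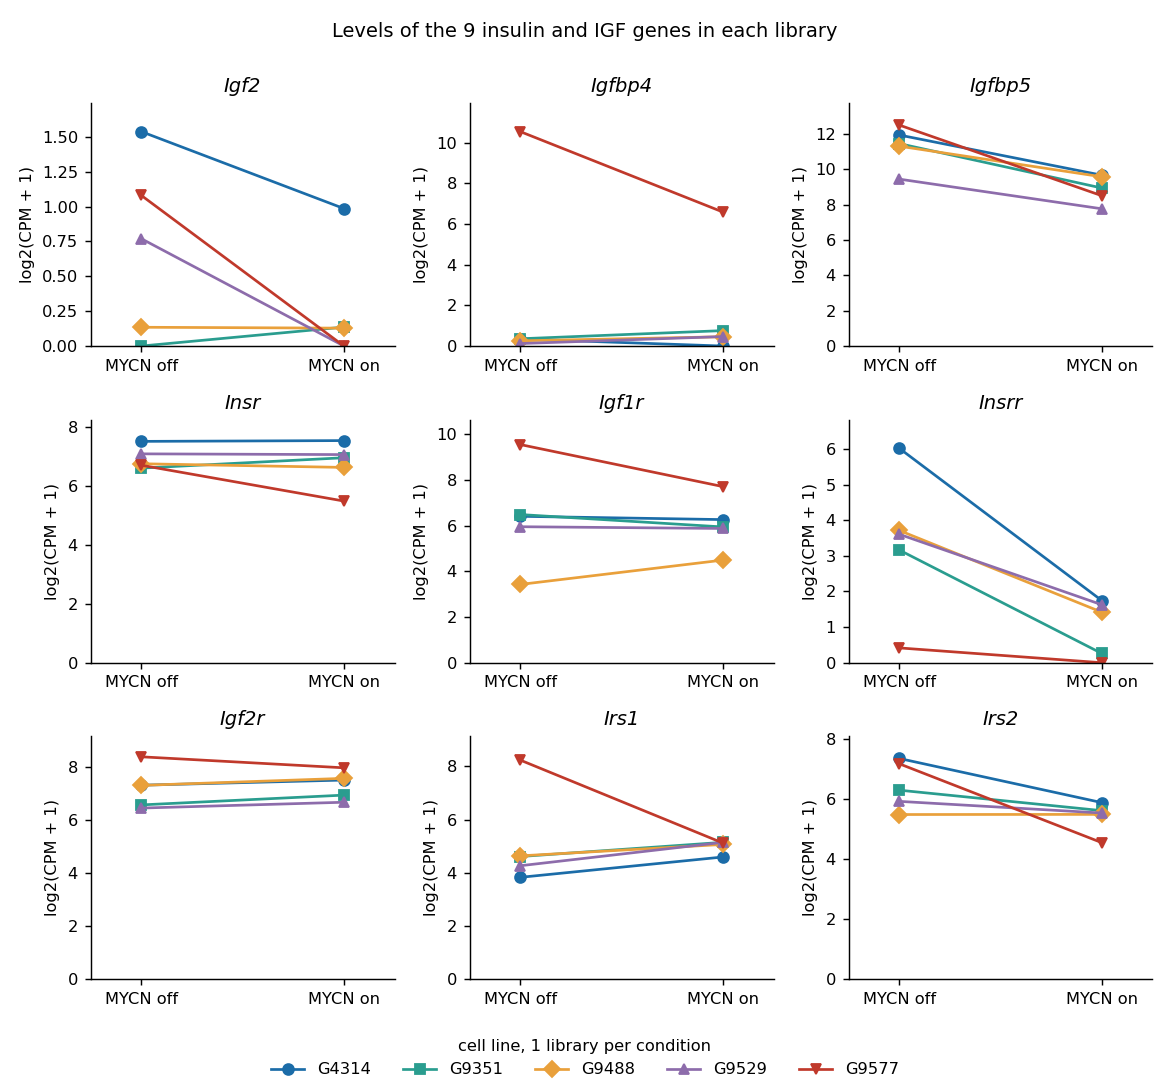
Level of each of the 9 genes as log2(CPM + 1) with MYCN off (left) and on (right), 1 panel per gene with its own axis from 0, 1 line and marker style per cell line and 1 library per point. Insrr and Igfbp5 slope downward in all 5 lines, Igfbp4 is high only in G9577 (95.0 CPM on, 1485 CPM off), and Irs1 slopes upward in 4 lines and steeply downward in G9577. The slope of Insrr in G9577 rests on 3 counts off and 0 on.

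Ligand transcripts were scarce in these cells. Igf2 (mm9 chromosome 7, 149836673 to 149846940, minus strand), the fetal growth factor that acts through IGF1R and INSR, had 0 to 10 counts in the MYCN-on libraries and 0 to 21 in the MYCN-off libraries. Its highest level was 1.90 CPM, in G4314 with MYCN off, where it had 21 counts against 10 with MYCN on. G9529 and G9577 had 8 and 10 counts with MYCN off and 0 with MYCN on, so both differences rest on few reads. Igf2 did not pass the filter on low counts and was not fitted. Its exons share 98 bases with those of the antisense gene Igf2os, and reads were counted without regard to strand. The insulin genes Ins1 and Ins2 were at 0 in 9 and 10 of the 10 libraries, and Ins1 had 1 count in the remaining one. Igf1, the other IGF ligand, was detected mainly in G9488, at 15.2 CPM on and 24.4 CPM off, and at no more than 1.97 CPM elsewhere.

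Igfbp5 (mm9 chromosome 1, 72904639 to 72921439, minus strand) encodes a secreted IGF-binding protein that also binds extracellular matrix. It was the most abundant of the 9 genes per kilobase of gene model in each of the 10 libraries. With MYCN off it was at 3908 CPM in G4314, 2792 in G9351, 2523 in G9488, 693 in G9529 and 5772 in G9577. With MYCN on it was at 809, 488, 759, 216 and 361 CPM in the same order. Each line was lower with MYCN on, by 4.83, 5.71, 3.32, 3.21 and 15.98 times in that order. The groups overlapped only because the MYCN-off library of G9529 lay below the MYCN-on libraries of G4314 and G9488. The fitted log2 change, MYCN on minus off, was -2.42 (SE 0.35), and it was -2.04 (SE 0.18) without G9577.

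Igfbp4 (mm9 chromosome 11, 98902574 to 98913957, plus strand), a binding protein that sequesters IGFs until the protease PAPP-A cleaves it, was nearly restricted to G9577. It had 1020 counts there with MYCN on and 13341 with MYCN off, or 95.0 and 1485 CPM, a level 15.6 times lower with MYCN on. The other 8 libraries had 0 to 7 counts. Igfbp4 therefore failed the filter, which asks for expression in 5 libraries, and was not fitted. Igfbp3, another binding protein outside the 9, had the same distribution, with 56.9 CPM on and 2729 CPM off in G9577 and at most 1.78 CPM in any other library. The sum of the mesenchymal markers of G9577, given above, was also lower there with MYCN on, and the part of these markers in these values was not tested. Pappa, which encodes PAPP-A, ranged from 4.19 to 28.1 CPM in the MYCN-on libraries and from 9.87 to 28.7 CPM in the MYCN-off libraries (log2 change -0.69, SE 0.37, Benjamini-Hochberg adjusted p = 0.186 by the quasi-likelihood test of edgeR).

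The binding-protein pool was smaller with MYCN on in each line, and in 3 of the 4 lines other than G9577 it passed from mostly Igfbp5 to a mixture with Igfbp2. The levels of Igfbp1 to Igfbp7 were summed per kilobase of gene model. The sum with MYCN off and on was 705 and 149.98 in G4314, 482 and 138 in G9351, 465 and 393 in G9488, 129.96 and 102 in G9529, and 3344 and 345 in G9577. The drop was large in G4314, G9351 and G9577 and slight in G9488 and G9529. With MYCN off, Igfbp5 made up 91.1% to 98.9% of the sum in the 4 lines other than G9577. With MYCN on its share was 92.1% in G4314 but 60.7% in G9351, 32.995% in G9488 and 36.2% in G9529. Igfbp2 made up most of the remainder, with 38.0%, 66.8% and 63.1% of the sum in those 3 lines. In G9577 the pool with MYCN off was spread over Igfbp3 (33.4%), Igfbp5 (29.5%), Igfbp4 (21.5%) and others. Igfbp2 made up 6.59% of it with MYCN off and 36.5% with MYCN on. With MYCN on the shares of Igfbp5, Igfbp4 and Igfbp3 in G9577 were 17.9%, 13.3% and 6.76%. Igfbp7 lay between Igfbp2 and Igfbp5 in that library, at 87.8 CPM per kilobase against 126 and 61.7.

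**Figure D2:**
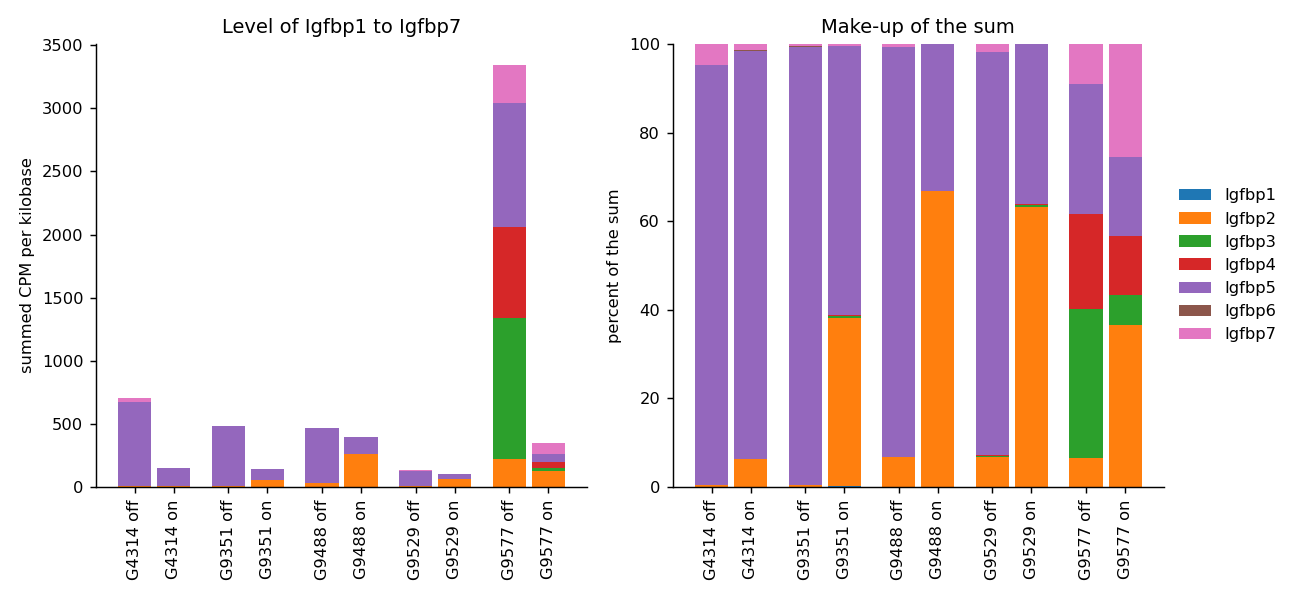
Left, summed level of Igfbp1 to Igfbp7 in CPM per kilobase of gene model, stacked by gene, for each line with MYCN off and on (1 library per bar, no error). Right, the same values as percent of each library's sum. Igfbp5 fills 91.1% or more of the MYCN-off bars of 4 lines, Igfbp2 fills 63.1% and 66.8% of the MYCN-on bars of G9529 and G9488, and G9577 with MYCN off stands highest at 3344.

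Igfbp2, a further secreted IGF-binding protein, was named after its values were seen. It was at 3.71, 2.44, 41.1, 11.6 and 293 CPM with MYCN off in G4314, G9351, G9488, G9529 and G9577. With MYCN on it was at 12.3, 69.4, 349, 85.2 and 167 CPM in the same order. The first 4 lines were higher with MYCN on and G9577 was lower. Over 5 lines the log2 change of 2.38 (SE 0.77) missed the threshold (edgeR quasi-likelihood test, adjusted p = 0.0512). Without G9577 it was 3.11 (SE 0.41), with an adjusted p of 0.00268. Igfbp7, a related secreted protein with low affinity for IGFs, fell in 5 of 5 lines (log2 change -2.96, SE 0.48, adjusted p = 0.00681). It ran from 0 to 2.55 CPM on and from 2.82 to 41.0 CPM off in the 4 other lines, and was at 107 and 363 CPM in G9577. Without G9577 its log2 change was -3.59 (SE 0.50). Its exons share 89 bases with those of Polr2b on the opposite strand.

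Insrr (mm9 chromosome 3, 87600873 to 87620023, plus strand) encodes the insulin receptor-related receptor, a member of the insulin receptor family that binds neither insulin nor IGFs and is activated by alkaline medium. With MYCN off it had 706 counts in G4314, 85 in G9351, 124 in G9488, 127 in G9529 and 3 in G9577, or 63.9, 7.97, 12.1, 11.2 and 0.334 CPM. With MYCN on it had 24, 2, 18, 22 and 0 counts, or 2.35, 0.197, 1.67, 2.09 and 0 CPM. In the 4 lines other than G9577 the groups did not overlap (as for 17.8% of all genes tested), and the MYCN-off level was 27.2, 40.4, 7.25 and 5.35 times the MYCN-on level. The ratio for G9351 rests on 2 counts with MYCN on. Insrr was at or under 3 counts in both libraries of G9577, the line with the lowest neuroendocrine markers, so no fold is given there. Over all lines the fit gave a log2 change of -3.66 (SE 0.51), or -3.60 (SE 0.48) without G9577.

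Most of the neuroendocrine markers were also lower with MYCN on. Of the 10, 9 were tested, 7 fell and 0 rose, where 15.6% of all genes fell. Insm1, a transcription factor on that list, was level in G4314 (855 CPM on, 860.02 off) and higher with MYCN on in G9351 (685 on, 441 off). Uchl1 was level in G4314 (757 on, 740 off) and G9351 (739 on, 737 off). It was lower with MYCN on in G9488 (584 on, 700 off) and G9529 (889 on, 989 off). In G9577 Uchl1 was higher with MYCN on (118 on, 17.3 off). The sum of the 10 markers in the 4 lines was 5210 to 7292 CPM with MYCN off and 3213 to 4094 CPM with MYCN on. The part of these markers in the Insrr values was not tested. Over the 10 libraries, the genes whose log2 CPM was most like that of Insrr were Golga1 (Pearson r = 0.97), Ppp1r37 (0.96) and Rgag1 (0.95). These correlations describe 5 pairs of libraries from 5 lines and all of them share the MYCN contrast.

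Insr (mm9 chromosome 8, 3150922 to 3279617, minus strand), the insulin receptor, had levels within 1.28 times of each other in both conditions in 4 lines. It was at 181, 96.0, 106.5, 135 and 103 CPM with MYCN off and at 184, 123, 97.6, 132 and 43.7 CPM with MYCN on in G4314, G9351, G9488, G9529 and G9577. The groups overlapped, and G9577 had the largest difference, being 2.35 times lower with MYCN on. The fit gave a log2 change of -0.19 (SE 0.22) over 5 lines and 0.07 (SE 0.11) without G9577, so the sign depended on that line.

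Igf1r (mm9 chromosome 7, 75097143 to 75378553, plus strand), the main signalling receptor for IGF1 and IGF2, varied far more between lines than between conditions. With MYCN off it was at 84.3, 89.0, 9.78, 61.2 and 753 CPM, and with MYCN on at 76.3, 60.8, 21.6, 58.0 and 209 CPM, in the same order of lines. G9577 was highest and G9488 lowest in both conditions. In G9488 the level was 2.21 times higher with MYCN on, and in G9577 it was 3.60 times lower. For Igf1r the fitted change was -0.32 (SE 0.37) on the log2 scale, or 0.06 (SE 0.26) without G9577. The genes most like Igf1r in log2 CPM over the 10 libraries were Fam210b (r = 0.99), Mmp11 (0.98) and Lrch1 (0.97). These correlations include both libraries of G9577, where Igf1r was highest, and were not computed without that line.

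The balance of the receptors, which form hybrids when both are present, set the lines apart. Per kilobase, Insr exceeded Igf1r in the 8 libraries of the 4 lines other than G9577, by 1.38 to 13.9 times. The highest ratio was that of G9488 with MYCN off (13.9, against 5.79 with MYCN on). In G9577 the order was the opposite, with Igf1r at 5.73 times Insr with MYCN off and 3.74 times with MYCN on. Insrr exceeded Igf1r per kilobase in 2 libraries, both with MYCN off: G4314 (12.5 CPM per kilobase against 7.04) and G9488 (2.38 against 0.816). Insrr was below Igf1r in the other 8 libraries and below Insr in all 10.

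Igf2r (mm9 chromosome 17, 12875272 to 12962572, minus strand), the mannose 6-phosphate receptor that carries lysosomal enzymes and clears IGF2, differed little between conditions. It was at 158, 94.1, 157, 86.6 and 333 CPM with MYCN off and at 181, 122, 189, 101 and 249 CPM with MYCN on. The 4 lines other than G9577 were each 1.14 to 1.29 times higher with MYCN on, and G9577 was 1.33 times lower. The fitted log2 change was 0.13 (SE 0.14), or 0.27 (SE 0.09) without G9577. Airn, the antisense RNA that silences the paternal Igf2r allele in most tissues, ran from 3.08 to 11.99 CPM on and from 3.52 to 26.4 CPM off. The exons of both genes do not overlap, but unspliced Airn reads over Igf2r exons could not be told from Igf2r reads without strand.

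**Figure D3:**
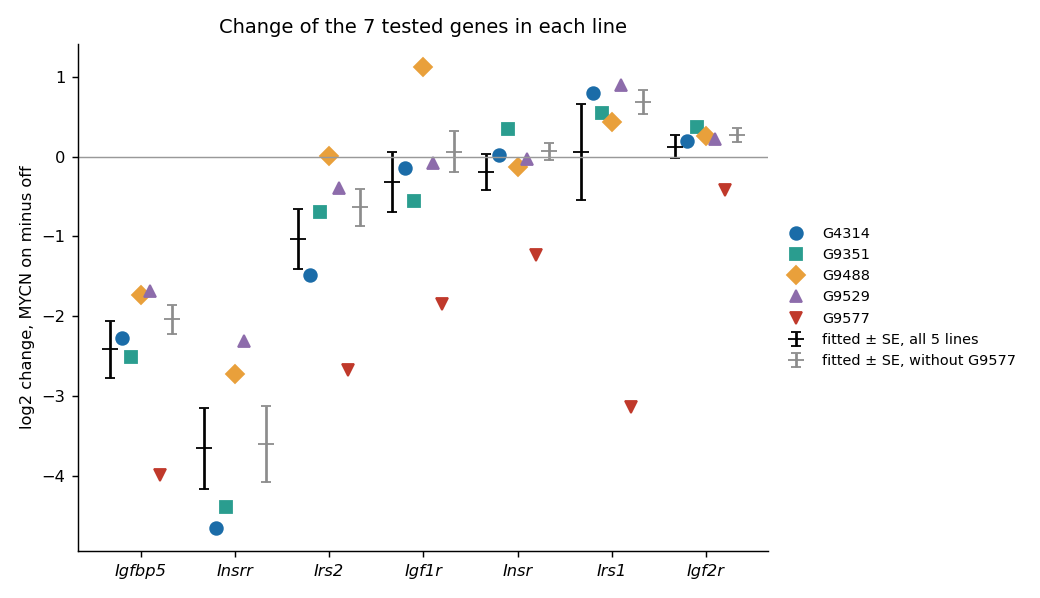
Log2 change, MYCN on minus off, of the 7 genes that passed the filter on low counts. Coloured markers are the 5 lines (1 library per condition), black bars the fitted change ± SE over 5 lines and grey bars the fit without G9577. G9577 lies lowest for the 6 genes other than Insrr, where it is not drawn because it had 3 counts or fewer, and the fits with and without it part most for Irs1 (0.06 and 0.69).

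Irs1 and Irs2 encode the main adaptors between these receptors and PI3K, and their values took different courses. Irs1 (mm9 chromosome 1, 82229680 to 82288014, minus strand) was at 13.2, 23.4, 23.9, 18.2 and 299 CPM with MYCN off. With MYCN on it was at 23.1, 34.3, 32.4, 34.3 and 33.7 CPM, a narrow range across all 5 lines. It was 1.36 to 1.88 times higher with MYCN on in the 4 lines other than G9577 and 8.86 times lower in G9577. The fitted log2 change was 0.06 (SE 0.60) over 5 lines and 0.69 (SE 0.15) without G9577. Irs2 (mm9 chromosome 8, 10986964 to 11008430, minus strand) was at 164, 78.2, 44.1, 60.1 and 145 CPM with MYCN off and at 58.4, 48.4, 44.2, 45.7 and 22.6 CPM with MYCN on. A lower level with MYCN on was seen in 4 lines, from 1.32 times in G9529 to 6.42 times in G9577, and G9488 was level. The fitted log2 change was -1.03 (SE 0.38), or -0.64 (SE 0.23) without G9577. Irs2 shares 162 exon bases with 9530052E02Rik on the opposite strand.

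Within each library the share of Irs1 in the sum of both adaptors, per kilobase, needs no reference to other genes. It was 3.42%, 11.6%, 19.2% and 11.7% with MYCN off in G4314, G9351, G9488 and G9529. With MYCN on it was 14.8%, 23.7%, 24.3% and 24.7%, higher in each of the 4. In G9577 it was 47.5% off and 39.6% on. Irs2 thus remained the more abundant adaptor transcript per kilobase in all 10 libraries.

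The promoters of both adaptor genes and of Igf2r hold the E-box CACGTG, the palindrome that MYC-MAX dimers bind. The sequences are from RefSeq (GRCm38.p6, a later build than the mm9 of the counts), and the E-boxes are in capitals to show where they lie. The site begins 115 bases before the annotated start in Irs1 (chr1:82291509-82291594, minus strand), 44 in Irs2 (chr8:11008930-11009013, minus strand), and 48 and 7 in Igf2r (chr17:12769707-12769794, minus strand).
Irs1: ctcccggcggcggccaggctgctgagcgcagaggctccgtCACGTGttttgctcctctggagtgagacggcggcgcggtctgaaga
Irs2: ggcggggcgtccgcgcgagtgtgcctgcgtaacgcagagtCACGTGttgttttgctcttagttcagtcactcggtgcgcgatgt
Igf2r: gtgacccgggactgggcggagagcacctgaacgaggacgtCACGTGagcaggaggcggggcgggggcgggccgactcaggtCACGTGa

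Windows of 300 bases, from 250 before to 50 after a start site, were searched on both strands for 7 of the 9 genes (10 windows, 4 of them for Igf2). CACGTG was in the windows of those 3 genes and not in those of Igf1r, Igf2, Igfbp4 or Igfbp5. It was in a window of 8.09% of all 27025 genes and in 7.15% of all 32851 windows. The FOXO motif GTAAACA was in 0 of the 10 windows and in 3.65% of all windows. A match is only a description of the letters, and the 3 genes with an E-box differed in direction: Irs1 and Igf2r were higher and Irs2 was lower or level with MYCN on in the 4 lines other than G9577. Insr and Insrr were not matched.

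Of the 9 genes, 7 passed the filter and were fitted, and 2 of these 7, Insrr and Igfbp5, passed the threshold as lower and 0 as higher. In this fit 15.6% of the 12835 genes tested were called lower and 15.3% higher, 31.0% in all. Without G9577, 2 were called lower and 1 (Irs1) higher, where 17.4% of all genes were called in each direction and 34.8% in all. Since Insrr was picked from this comparison, nothing is read from these counts. Insrr and Igfbp5 were also the 2 of the 7 that were lower in all 5 lines, as were 23.2% of all genes tested. For Insrr the difference in G9577 is one of 0 counts on and 3 off. Over 5 lines the MYCN-on and MYCN-off libraries overlapped for each of the 7, so 0 were separate, as were 9.23% of all genes. The median log2 change of the 7 was -0.32, against -0.08 over all genes.

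The rule that chose the genes did not name differences between the lines, although earlier results of these data were known when it was set. These differences were tested with edgeR's quasi-likelihood F test of the line terms, with doxycycline status in the model. Of the 7 genes fitted, 3 differed between lines, where 45.6% of all genes did. These were Igf2r (adjusted p = 0.00387), Igf1r (0.00401) and Insrr (0.00569). The mean of the 2 libraries of a line ran from 93.7 CPM in G9529 to 291 in G9577 for Igf2r, from 15.7 in G9488 to 481 in G9577 for Igf1r, and from 0.167 in G9577 to 33.1 in G4314 for Insrr. Igfbp5 (adjusted p = 0.0736), Irs1 (0.0864), Insr (0.0871) and Irs2 (0.504) missed the threshold. Without G9577, 5 of the 7 differed between the remaining 4 lines, against 31.2% of all genes. Igfbp5 (adjusted p = 0.00486) and Insr (0.0162) were then called too, beside Igf2r (0.00506), Igf1r (0.0131) and Insrr (0.0379). Among those 4 lines Igfbp5 ran from 454 CPM in G9529 to 2358 in G4314, and Insr from 102 in G9488 to 183 in G4314. Whether the response to MYCN differs between lines could not be tested, as each line has 1 library per condition.

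Per kilobase, the median levels with MYCN on ran Igfbp5 (83.4), Igf2r (20.3), Insr (13.1), Irs2 (11.4), Igf1r (5.08), Irs1 (3.68), Insrr (0.328), Igfbp4 (0.184) and Igf2 (0.0219). Only Igfbp5 over Igf2r and Irs1 over Insrr were separated without overlap of the 5 libraries. The neighbours from Igf2r to Irs1 overlapped, and so did those from Insrr to Igf2. With MYCN off, Irs2 (19.5) stood next to Igfbp5 (477) and above Igf2r (17.6), Insr (11.4), Igf1r (7.04), Irs1 (2.56) and Insrr (2.19). Only Igfbp5 was then clear of its neighbour. Igf2 (0.166) and Igfbp4 (0.132) were again lowest by median, although Igfbp4 reached 719 CPM per kilobase in G9577.

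The rest of the pathway was covered by 4 lists with 62 genes, of which 53 passed the filter. With MYCN on, 6 rose and 7 fell, so 24.5% were called, against 31.0% of all genes. Of all genes 15.3% rose and 15.6% fell, the shares to set beside the counts of each list below. The median log2 change of the 53 genes was -0.27. Without G9577, 8 rose and 7 fell, so 28.3% were called, against 34.8% of all genes. The naming rule chose 11 genes (up to 4 called genes with the smallest p in each list). All 11 were called in the same direction without G9577, with adjusted p from 0.00207 to 0.0209 in edgeR. They were picked for a small p in the fit with all lines, and the fit without G9577 reuses libraries of that fit. Nothing is therefore read from these repeat calls, and the share of all called genes that repeat is not given.

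**Figure D4:**
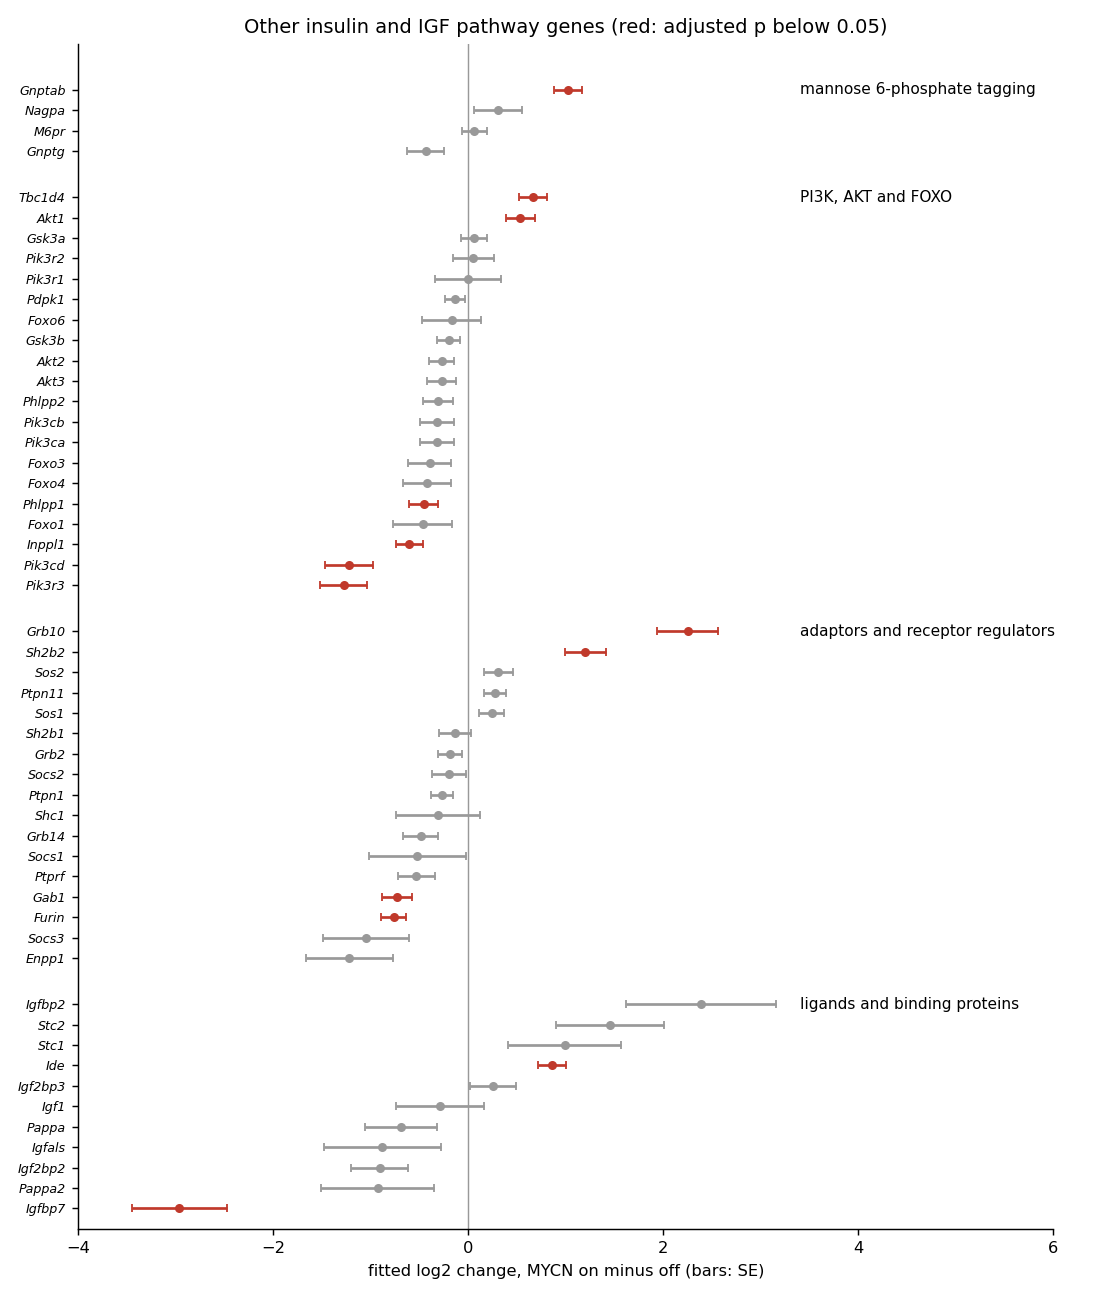
Fitted log2 change, MYCN on minus off, with SE for the other pathway genes shown over 5 lines, in 4 lists. Red points have an adjusted p under 0.05 by edgeR: 6 lie to the right of 0, led by Grb10 at 2.25, and 7 to the left, led by Igfbp7 at -2.96.

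Among 18 further ligands, binding proteins and their regulators, 11 were tested, 1 rose and 1 fell, with a median log2 change of -0.29. The rise was that of Ide, the protease that degrades insulin, from 94.7 ± 18.3 to 179 ± 64.2 CPM (SD, n = 5; log2 change 0.86, SE 0.14, adjusted p = 0.00662 in edgeR). It was higher in 5 of 5 lines. The fall was that of Igfbp7, given above. Stc2, a secreted inhibitor of PAPP-A that was named after its values were seen, was higher in the other 4 lines and lower in G9577, and passed only without G9577 (log2 change 1.90, SE 0.45, adjusted p = 0.0177, against 0.0825 over 5 lines).

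Among 19 adaptors and receptor regulators, 17 were tested, 2 rose and 2 fell, with a median of -0.27. Grb10, an imprinted adaptor that binds the insulin and IGF1 receptors and inhibits them, rose in 5 of 5 lines. It was at 65.8, 89.4, 13.7, 7.22 and 4.01 CPM with MYCN off and at 157, 419, 53.0, 87.1 and 20.9 CPM in the MYCN-on libraries (log2 change 2.25, SE 0.31, adjusted p = 0.00461 in edgeR). Its level differed widely among lines, so the groups overlapped although each line rose. Sh2b2, an adaptor recruited to the insulin receptor, rose from 6.43 to 12.3 CPM with MYCN off to 16.7 to 25.004 CPM with MYCN on, with no overlap of the groups (log2 change 1.20, SE 0.21, adjusted p = 0.00839). Furin, the convertase that cleaves the precursors of INSR and IGF1R, fell in 5 of 5 lines (log2 change -0.76, SE 0.13, adjusted p = 0.00714). Gab1, a docking protein that recruits PI3K and SHP2, fell as well (-0.73, SE 0.16, adjusted p = 0.0151) but missed the threshold without G9351 (log2 change -0.70, adjusted p = 0.0575).

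Among 21 genes of PI3K, AKT and FOXO, all of which were tested, 2 rose and 4 fell, with a median of -0.27. Pik3r3, a regulatory subunit of PI3K enriched in neural tissue, was at 498, 572, 422, 445 and 72.6 CPM with MYCN off and at 212, 153, 199, 126 and 58.7 CPM with MYCN on. It fell in 5 of 5 lines (log2 change -1.28, SE 0.24, adjusted p = 0.00988 in edgeR). The groups did not overlap in the 4 lines other than G9577, as for 17.8% of all genes tested. The catalytic subunit Pik3cd, known mainly from leukocytes, fell from 17.8 ± 13.9 to 7.11 ± 4.14 CPM (SD, n = 5; edgeR adjusted p = 0.0125). The leukocyte markers are given above, and their part in this value was not tested. Tbc1d4, an AKT substrate in glucose transporter traffic, rose 1.58-fold (adjusted p = 0.0149), and the lipid phosphatase Inppl1, which degrades the PI3K product, fell by 0.61 on the log2 scale (adjusted p = 0.018). Tbc1d4 missed the threshold without G9351 (log2 change 0.57, adjusted p = 0.0678). Inppl1 missed it without G4314, G9351 or G9488 (log2 change -0.58 to -0.53, adjusted p 0.0657 to 0.0716). These sizes were close to those over 5 lines. The remaining calls, Akt1 as higher (log2 change 0.54, SE 0.15, adjusted p = 0.0314) and Phlpp1 as lower (-0.46, SE 0.15, adjusted p = 0.0498), were outside the naming rule. Without G9577 the adjusted p of Phlpp1 was 0.0645. Foxo1, Foxo3 and Pik3ca, named after their values were seen, missed the threshold, with log2 changes of -0.47, -0.39 and -0.32.

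Of 4 genes of the mannose 6-phosphate tag, the ligand of Igf2r on lysosomal enzymes, all were tested and 1 rose. Gnptab, which encodes the catalytic subunits of the tagging enzyme, rose from 43.7 ± 25.8 to 83.3 ± 31.3 CPM (SD, n = 5) and in 5 of 5 lines (log2 change 1.02, SE 0.14, adjusted p = 0.00452 in edgeR). M6pr, the smaller mannose 6-phosphate receptor, missed the threshold (adjusted p = 0.721) at a log2 change of 0.06 (SE 0.13).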

How the data were processed

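The submitters' processing notes name bcl2fastq 1.8.4, STAR 2.5.2a and mm9. The authors deposited whole read counts for each gene, made by featureCounts 1.6.0 on UCSC gene models of mm9 without strand, per the file headers, whose command has no option to count multi-mapping reads.

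Genes were kept with filterByExpr (minimum count 10, grouped by doxycycline status), which left 12835 of 24391 genes and 93.9% to 99.9% of each library's counts. Counts were scaled with TMM and fitted with edgeR 4.0.16 (R 4.3.3; quasi-likelihood, cell line as a block, 4 residual degrees of freedom). P-values are two-sided and Benjamini-Hochberg adjusted across the genes tested, with 0.05 as the threshold. SE was taken as the size of the log2 change over the square root of F. Changes of single lines use log2 CPM with a prior count of 2, but ratios given as times are of CPM itself. The computations were tested on simulated data.

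The line in each title pairs the libraries. Deviations from group means correlated within a line at r = 0.721 to 0.873 and between lines at no more than 0.273. No 2 libraries were identical. Nothing says that cultures were repeated, and each line has 1 culture per condition. With the line as a block, p-values for MYCN on against off measure the spread of that change among the 5 lines. The test between lines uses that same spread as its error. It takes the 2 libraries of a line as replicates, so it rests on no repeated cultures of a line.

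The 9 genes and the lists were chosen with earlier results of these data known. The naming rule took the 9 genes, Mycn, up to 4 called genes with the smallest p from each list, and for Insrr, Igf1r and Igf2 the 3 genes with the highest correlation among those with a mean of at least 1 CPM. Igf2 was too low to be compared. Some genes are not reported here. Promoter motifs were searched for after the values were seen. Alternatives were no line block, DESeq2 1.42.0, RLE scaling, no low-count filter and each line left out.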

Additional observations from a re-analysis of the deposited data

Results flagged for a closer look

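With 5 lines per condition, a library was singled out when its gap to the next one exceeded 0.71 of the group's range on the log2 scale (Dixon's criterion), which chance does in about 1 of 20 groups. In 27 groups 7 libraries or lines were singled out, 5 of them from G9577. Irs1 in G9577 was at 299 CPM with MYCN off, and its log2 change there was -3.14. Igfbp4 in G9577 was at 95.0 CPM on and 1485 CPM off. The log2 change of Igf2r in G9577 was -0.42, against changes above 0 in the other 4 lines. Among MYCN-on libraries, G4314 was lowest for Irs1 (23.1 CPM) and highest for Igf2 (0.98 CPM, 10 counts). Whether G9577 responds differently from the other lines was not tested.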

How the results depend on the processing

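Without the replicate block, edgeR called 1 other pathway gene higher and 0 lower (6 and 7 with the block), with 5 higher and 3 lower at an unadjusted p under 0.05. Over all 12835 genes the calls also went from 1969 higher and 2004 lower to 215 and 59. DESeq2 called 12 pathway genes lower and RLE scaling 9, where they called 2997 and 2274 of all genes lower. With each line left out in turn, 4 to 8 were higher and 4 to 7 lower, the lowest without G9351. Calls over all genes moved too, with 813 higher and 916 lower of 12870 without G9351. Without G9577 they were 2244 and 2249 of 12925. Members that differ between lines numbered 3, but 6 with DESeq2, 5 with no filter on low counts (Igfbp4 and Igfbp5 in addition) and 3 to 5 with a line left out. Over all genes 5859 of 12835 differed between lines, 7462 with DESeq2 and 6979 of 20286 with no filter. With a line left out the number ran from 4030 of 12925 (without G9577) to 5527 of 12985 (without G9529). Without the block the log2 changes of Igf1r and Irs1 were -1.23 and -1.26. The sign of Irs1 also turned without G4314, G9351, G9488 or G9529 (-0.22 to -0.03). The cause was not tested. Fitted changes of the 7 genes that passed the filter, Igf1r and Irs1 included, moved by less than the SD of their line changes in each alternative. That SD was wide for Irs1 (1.72) and Igf1r (1.07), so for these genes the criterion was a loose one and does not show stability. Insr and Igf1r did turn sign without G9577 (0.07 and 0.06). The block moved most calls of single pathway genes: of the 11 named, Sh2b2 alone passed without it (adjusted p = 0.0433). Depth limits Igf2 in all libraries, Igfbp4 outside G9577 and Insrr in G9577, which rest on few counts.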
